A study of Arabidopsis thaliana with 36 samples.

Results

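Indolic glucosinolates are sulfur-rich defence compounds that Arabidopsis leaves make from tryptophan, and 9 genes of their synthesis are described here. The genes were taken by locus identifier from a list of 3 regulators and 6 enzymes, a rule that uses no measured value. The list itself was chosen with earlier results of these data known. They are 9 of 33279 genes in the deposited table. Of the 9, 8 reached 1 FPKM in at least 3 libraries and were tested among 18729 genes, and MYB122 did not. FPKM is the number of sequenced fragments scaled to transcript length and library total, and it was summed over the transcripts of a gene.

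The regulators are MYB34 (AT5G60890), MYB51 (AT1G18570) and MYB122 (AT1G74080), MYB-family transcription factors that switch on the pathway. CYP79B2 (AT4G39950) and CYP79B3 (AT2G22330) are cytochrome P450 enzymes that turn tryptophan into indole-3-acetaldoxime, a branch point that also leads to camalexin and to auxin. CYP83B1 (AT4G31500) oxidises the aldoxime and commits it to glucosinolates, and SUR1 (AT2G20610) is the C-S lyase that releases the thiohydroximate for both the indolic and the aliphatic branch. CYP81F2 (AT5G57220) hydroxylates the indole ring of the finished glucosinolate, and IGMT1 (AT1G21100) methylates that hydroxyl group. The methoxylated product is known for its role in defence of leaves against fungi and aphids.

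Leaves were taken from wild-type Col-0 plants at 35 and at 21 days after sowing (DAS). At each age the times were ZT1, ZT5, ZT9, ZT13, ZT17 and ZT21, where ZT counts hours since lights on. Plants grew at 22 °C with 16 h of light and 8 h of dark, so ZT17 and ZT21 fell in the dark. Each of the 12 groups had 3 libraries of polyadenylated RNA from rosette leaves 3 and 4, which makes 36 libraries, 18 of each age. The 3 libraries carry the batch numbers 1 to 3 in their titles, and the series text calls them biological replicates. Nothing says whether these came from separate plants, so p-values measure the spread between these samples.

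FPKM sums lay between 829518 and 947688 at 35 DAS and between 872504 and 952310 at 21 DAS. Depth is not known. A rough ratio between libraries, estimated from the steps between the lowest values, lay between 0.740 and 1.83 at 35 DAS and between 0.842 and 1.56 at 21 DAS. A check gave this estimate little support. As deposited, the median gene was higher at 35 DAS by 0.39 on the log2(FPKM + 1) scale. The age effects of the 8 tested members over the 6 times are thus also given relative to that shift or after median-of-ratios rescaling. Other effects are as deposited unless stated. Of the genes tested, 12084 were called higher and 4349 lower at 35 DAS as deposited, and 7898 and 7260 after rescaling. Libraries of 35 DAS also varied more, with a median within-group SD of 0.289, against 0.189 at 21 DAS. The labels name leaves and no cell type. Summed FPKM of 4 mesophyll markers was 6468 to 23286 at 35 DAS and 21723 to 39395 at 21 DAS. Epidermis markers (4 genes, PDF1 under 1 FPKM in all libraries) summed to 37.7 to 214 at 35 DAS and 405 to 853 at 21 DAS, and 3 xylem markers to 0.334 to 13.9 and 20.9 to 43.3. Guard cell and myrosin cell markers (4 genes) summed to 27.5 to 82.9 at 35 DAS and 65.5 to 157 at 21 DAS, 5 phloem markers to 481 to 1336 and 538 to 1238, and 3 senescence markers to 24.9 to 314 and 2.35 to 46.2. The root list summed to 0.0726 to 6.23 at 35 DAS and 0 to 0.750 at 21 DAS, and the flower list to 0 to 1.52 and 0 to 0.197, with WOX5, COBL9, AP1 and AP3 under 1 FPKM in all libraries. In whole leaves, fewer cells of a type and less RNA per cell cannot be told apart, and the part of these markers in the results was not tested.

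The 250 bases before the transcript start are printed for the 2 enzymes that make the same compound, with the longest stretch that both hold in capitals. Sequences come from RefSeq's TAIR10.1 assembly, 5′ to 3′ on the strand of the gene, and the start is the more upstream of those in the deposited table and in RefSeq. Both genes lie on the plus strand, CYP79B2 upstream at chr4:18524792-18525041 and CYP79B3 upstream at chr2:9488163-9488412.
CYP79B2: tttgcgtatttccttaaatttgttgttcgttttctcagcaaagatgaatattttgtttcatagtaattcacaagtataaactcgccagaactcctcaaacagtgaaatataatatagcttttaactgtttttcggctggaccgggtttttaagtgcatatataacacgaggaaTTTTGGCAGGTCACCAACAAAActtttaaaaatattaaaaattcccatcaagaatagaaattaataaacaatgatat
CYP79B3: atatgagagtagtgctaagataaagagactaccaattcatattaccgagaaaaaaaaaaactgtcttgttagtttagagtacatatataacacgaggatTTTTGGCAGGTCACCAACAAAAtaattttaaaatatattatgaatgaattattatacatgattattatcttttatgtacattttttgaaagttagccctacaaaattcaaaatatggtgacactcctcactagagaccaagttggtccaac
The shared run is 22 bases long, and it grows to 40 bases when 1 mismatch is allowed. It starts 77 bases before the start of CYP79B2 and 151 bases before that of CYP79B3. In the other 35 pairs of the 9 promoters the longest exact run was 7 to 13 bases. The coding sequences of both enzymes were identical at 81.1% of aligned bases.

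Upstream sequences of 3 further genes are printed because their levels differed most between the ages. Here capitals mark a W-box core (TTGAC), a G-box (CACGTG), an evening element (AAATATCT) or a CCA1 binding site (AAAAATCT), letters known for defence, light and clock factors, each searched on both strands. MYB34 lies upstream at chr5:24494041-24494290 (plus strand), MYB51 at chr1:6389149-6389398 (plus strand) and IGMT1 at chr1:7388513-7388762 (minus strand).
MYB34: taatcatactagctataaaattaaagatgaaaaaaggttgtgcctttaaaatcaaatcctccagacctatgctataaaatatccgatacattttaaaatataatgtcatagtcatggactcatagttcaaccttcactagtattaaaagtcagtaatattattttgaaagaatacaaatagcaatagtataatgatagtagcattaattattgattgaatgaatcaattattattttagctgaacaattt
MYB51: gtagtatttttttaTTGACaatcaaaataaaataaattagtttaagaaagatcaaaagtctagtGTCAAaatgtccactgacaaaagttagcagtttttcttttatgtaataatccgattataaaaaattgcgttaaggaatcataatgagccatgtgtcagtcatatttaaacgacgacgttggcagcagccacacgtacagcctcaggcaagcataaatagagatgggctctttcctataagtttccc
IGMT1: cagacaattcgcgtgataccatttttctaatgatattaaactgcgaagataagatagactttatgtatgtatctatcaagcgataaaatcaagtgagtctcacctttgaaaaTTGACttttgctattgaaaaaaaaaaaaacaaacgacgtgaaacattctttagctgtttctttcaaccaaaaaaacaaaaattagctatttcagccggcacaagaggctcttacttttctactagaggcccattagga
MYB51 holds 2 W-box cores, the letters that WRKY factors bind, and IGMT1 holds 1. None of the 4 motifs is in the 250 bases of MYB34, which says only that these letters are not in that window. CYP81F2 and SUR1 hold 2 W-box cores each, so 4 of 9 members hold one, against 44.9% of 27443 promoters of the same length. SUR1 also holds 1 G-box (6.49% of promoters) and MYB122 holds 1 evening element (4.79%). No member holds the CCA1 binding site, which 6.69% of promoters hold.

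The age effect (35 minus 21 DAS, the mean of the 6 times) passed limma's test in 7 of the 8 tested members, with 6 higher and 1 lower at 35 DAS. Among all genes tested, 64.5% were called higher and 23.2% lower, so these shares are near the background. The median effect over the 8 members was 0.45 on the log2(FPKM + 1) scale, and 0.39 over all genes. MYB34, MYB51, CYP83B1 and IGMT1 passed in the same direction after rescaling, 3 of them higher and 1 lower, and CYP79B3 then passed as lower, so that 3 were higher and 2 lower, against 42.2% and 38.8% of all genes. Libraries of 35 and 21 DAS did not overlap at any of the 6 times in those 4 members (as a background, 26.3% of all genes were above and 8.94% below at every time).

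**Figure D1:**
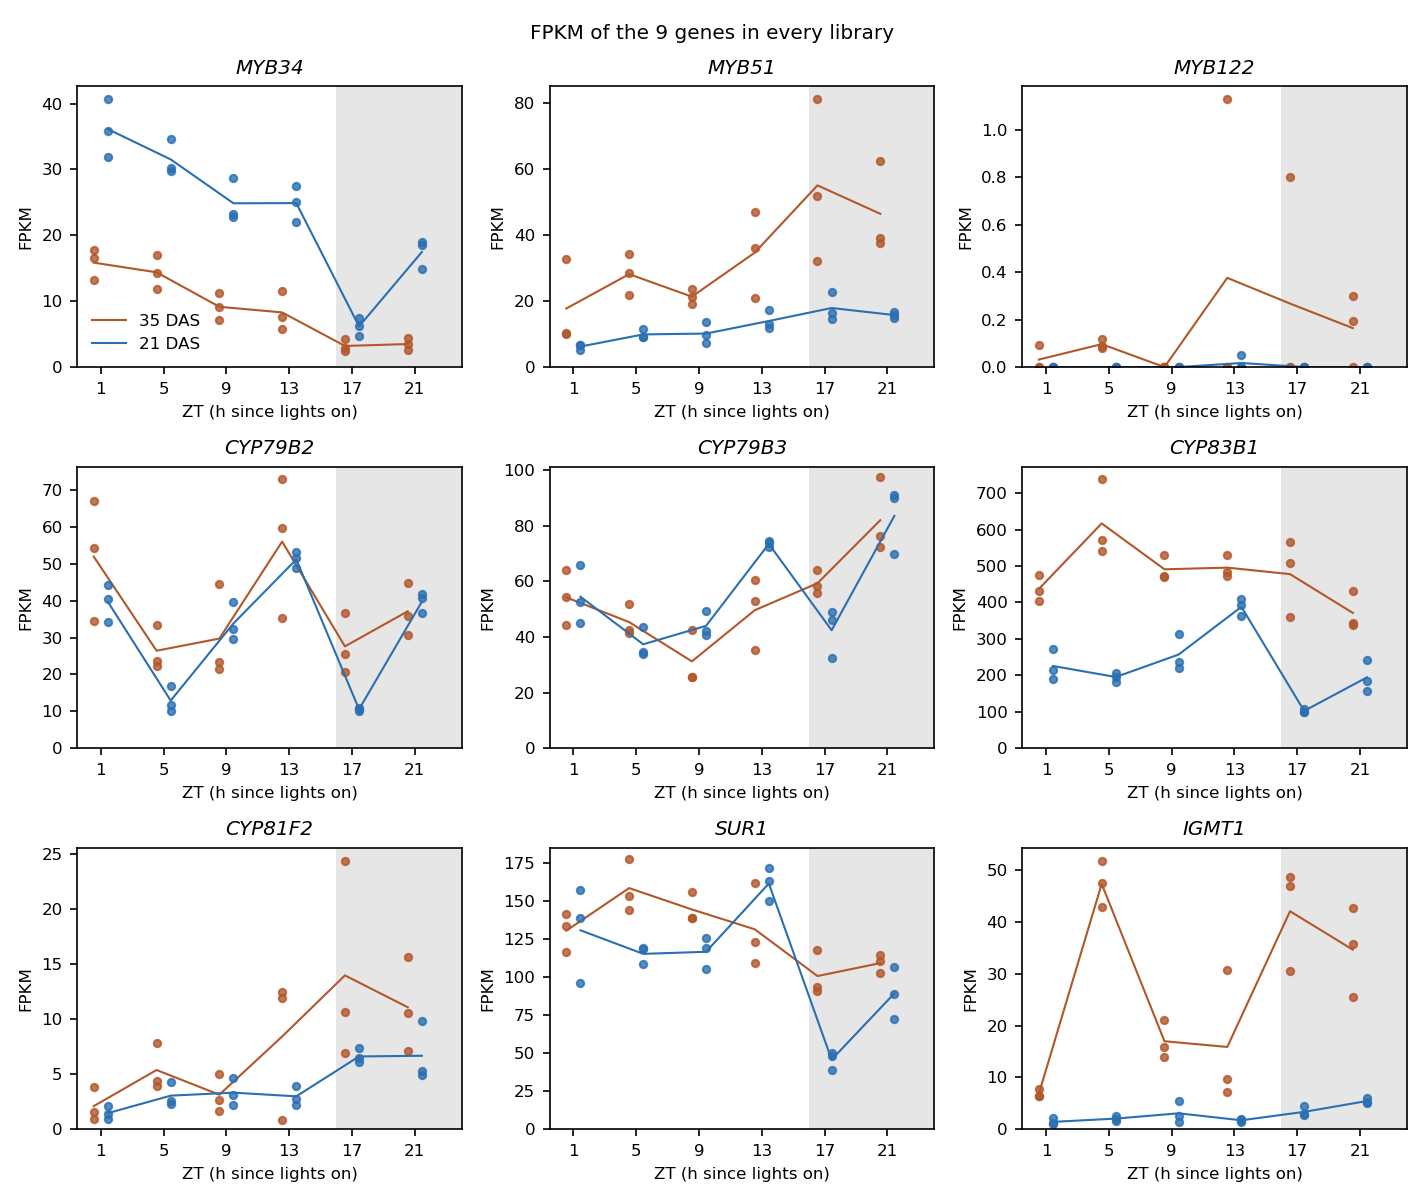
FPKM (vertical axis) against ZT in hours since lights on (horizontal axis) for the 9 genes. Each point is 1 library, lines join the means of 3 libraries, 35 DAS is brown and drawn left of 21 DAS in blue, and grey marks the dark. MYB34 lies lower at 35 DAS at all 6 times, while MYB51, CYP83B1 and IGMT1 lie higher.

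MYB34, on chromosome 5 (24494691 to 24496351, TAIR10), is also known as ATR1 for its role in the regulation of tryptophan genes. It averaged 9.07 ± 5.28 FPKM at 35 DAS and 23.5 ± 10.3 FPKM at 21 DAS (SD, n = 18 libraries each). At ZT1 the libraries read 13.2, 16.6 and 17.8 FPKM at 35 DAS, against 40.8, 31.9 and 35.8 FPKM at 21 DAS. At ZT21 they read 3.49, 4.34 and 2.65 FPKM at 35 DAS, against 15.0, 18.9 and 18.5 FPKM at 21 DAS. All libraries of 35 DAS lay below those of 21 DAS at each time. Both ages were lowest at night, with 4.30, 2.83 and 2.49 FPKM at ZT17 at 35 DAS, against 7.45, 6.31 and 4.79 FPKM at 21 DAS. The age effect was −1.32 ± 0.08 (SE) on the log2(FPKM + 1) scale, with an adjusted p of 8.8e-15 (limma), and −1.72 relative to the median gene. Within batches 1, 2 and 3 it was −1.38, −1.09 and −1.49.

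MYB51 (chromosome 1, 6389411 to 6391267), a factor known to respond to pathogens and ethylene, moved the other way. It averaged 33.9 ± 18.1 FPKM at 35 DAS and 12.3 ± 4.60 FPKM at 21 DAS. At ZT17 it had 51.7, 32.1 and 81.3 FPKM at 35 DAS, against 22.6, 14.6 and 16.4 FPKM at 21 DAS. The widest spread by ratio was at ZT1, with 32.7, 10.4 and 10.2 FPKM at 35 DAS, against 6.83, 6.60 and 5.23 FPKM at 21 DAS. Libraries of the ages did not overlap at any time. The age effect was 1.30 ± 0.14, with an adjusted p of 9.1e-10 (limma), which is 0.90 above the median gene, and 1.52, 0.98 and 1.39 within batches 1 to 3. MYB51 passed at each of the 6 times as deposited, with effects of 1.04 to 1.49, and after rescaling it did not pass at ZT1 and ZT9 (adjusted p = 0.0692 and 0.128). Without batch 1 it did not pass at ZT1 (0.0614), nor without batch 3 at ZT13 (0.0814).

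MYB122 (chromosome 1, 27855699 to 27857534), the least expressed of the 3 factors, was above 0 in 8 of 18 libraries at 35 DAS and in 1 of 18 at 21 DAS. Its highest values were 1.13 FPKM at ZT13 and 0.803 FPKM at ZT17, both in batch 3 of 35 DAS, and the only value above 0 at 21 DAS was 0.0516 FPKM. At ZT5 the 3 libraries of 35 DAS read 0.119, 0.0902 and 0.0815 FPKM, and those of 21 DAS were listed at 0. With so few fragments the gene had no test of its own.

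The ratio of MYB51 to MYB34 therefore differed between the ages. Its median was 2.57 at 35 DAS, with a range of 0.572 to 32.6, and 0.470 at 21 DAS, with a range of 0.146 to 3.42. MYB51 had the higher FPKM of the pair in 16 of 18 libraries at 35 DAS and in 4 of 18 at 21 DAS. At ZT1 the median ratio was 0.625 at 35 DAS and 0.168 at 21 DAS, and at ZT17 it was 12.03 at 35 DAS and 3.04 at 21 DAS. The age effects of the genes differed by 2.62 (MYB51 minus MYB34, log2(FPKM + 1)), with a permutation p of 1e-05, the smallest that 100000 permutations of ages within times can give. That difference had the same sign at 6 of 6 times and was 2.90, 2.07 and 2.89 within batches 1 to 3. FPKM is scaled to transcript length, and the lengths used are not given. The start of MYB34 is 24494691 in the deposited table and 24494291 in RefSeq. Which factor was higher in a library depends on those lengths, while the change of the ratio between the ages does not.

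**Figure D2:**
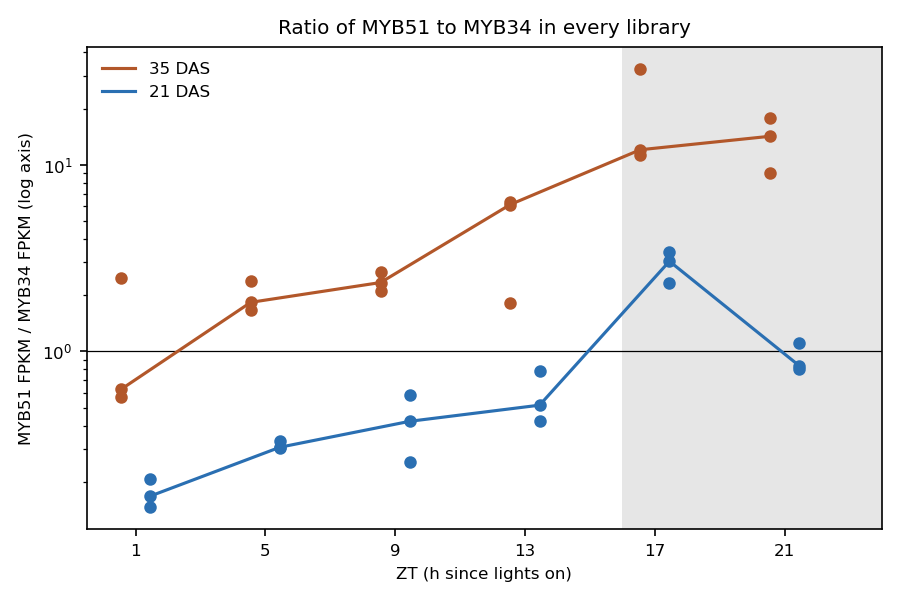
MYB51 FPKM divided by MYB34 FPKM in every library (vertical log axis) against ZT in hours (horizontal axis), with 35 DAS in brown drawn left of 21 DAS in blue, lines through medians and grey for the dark. The median at ZT21 is 14.2 at 35 DAS and 0.837 at 21 DAS.

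CYP79B2 and CYP79B3 make the same aldoxime, and over the mean of the 6 times neither was called higher at 35 DAS after rescaling. CYP79B2 (chromosome 4, 18525246 to 18527579) averaged 38.2 ± 16.1 FPKM at 35 DAS and 31.3 ± 15.5 FPKM at 21 DAS. Its age effect of 0.39 ± 0.11 passed with an adjusted p of 0.00159 (limma) as deposited, and it was −0.02 after rescaling, with an adjusted p of 0.872. The ages did not overlap at ZT5 and ZT17. At ZT5 its libraries read 22.3, 23.5 and 33.4 FPKM at 35 DAS, against 11.6, 16.9 and 10.2 FPKM at 21 DAS, an age effect of 0.99 that was 0.59 and did not pass after rescaling. At ZT17 its libraries read 20.8, 25.4 and 36.7 FPKM at 35 DAS, against 10.6, 10.1 and 10.9 FPKM at 21 DAS. The effect there was 1.27 ± 0.26 (adjusted p = 0.000142, limma) and stayed called after rescaling (0.94, adjusted p = 0.00367). At ZT9 the effect was −0.25 and did not pass as deposited, while after rescaling it was −0.71 and passed as lower (adjusted p = 0.0231).

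CYP79B3 (chromosome 2, 9488554 to 9491187) averaged 53.7 ± 17.97 FPKM at 35 DAS and 55.9 ± 18.8 FPKM at 21 DAS. Its age effect was −0.06 ± 0.08 and did not pass as deposited (adjusted p = 0.465, limma), while after rescaling it was −0.47 with an adjusted p of 7.5e-06. At ZT13 it had 53.2, 60.6 and 35.2 FPKM at 35 DAS, against 74.4, 72.4 and 73.8 FPKM at 21 DAS. At ZT17 it had 64.0, 58.2 and 55.8 FPKM at 35 DAS, against 32.4, 48.9 and 46.1 FPKM at 21 DAS. The libraries of 35 DAS were thus all lower at the last time in the light and all higher at the first time in the dark. At ZT13 the age effect was −0.59 and passed, also after rescaling (−0.83), though without batch 1 or batch 3 it did not (adjusted p = 0.0560 and 0.234). At ZT17 it was 0.49 and passed as deposited, but neither after rescaling (0.548) nor without batch 1 (0.429). The age effect of CYP79B3 was below that of CYP79B2, with a difference of −0.45 and a permutation p of 0.0006, and it had this sign at 5 of 6 times.

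CYP83B1 (chromosome 4, 15273471 to 15275310) was the most abundant of the 9 transcripts. It averaged 481 ± 95.7 FPKM at 35 DAS and 227 ± 92.9 FPKM at 21 DAS. At ZT5 its libraries read 540, 571 and 740 FPKM at 35 DAS, against 183, 195 and 207 FPKM at 21 DAS. At ZT13 they were closest, with 531, 473 and 483 FPKM at 35 DAS, against 409, 392 and 363 FPKM at 21 DAS, and still did not overlap. At ZT17 they had 565, 360 and 508 FPKM at 35 DAS, against 100, 106 and 99.7 FPKM at 21 DAS, the lowest point of the day at 21 DAS. The age effect was 1.17 ± 0.07 (adjusted p = 1.4e-15, limma), 0.78 above the median gene, and 1.23, 1.02 and 1.27 within batches 1 to 3. It exceeded that of CYP79B2 by 0.79, with a permutation p of 1e-05.

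SUR1 (chromosome 2, 8877960 to 8880388) averaged 129 ± 24.4 FPKM at 35 DAS and 110 ± 39.4 FPKM at 21 DAS. Its age effect of 0.32 ± 0.06 passed as deposited (adjusted p = 5.3e-05, limma), and it was −0.10 after rescaling, with an adjusted p of 0.144. At ZT17 it had 118, 90.6 and 93.5 FPKM at 35 DAS, against 38.9, 50.2 and 48.0 FPKM at 21 DAS, with no overlap. At single times SUR1 passed as higher at ZT5 (0.45) and ZT17 (1.12) as deposited, while after rescaling it passed as higher at ZT17 (0.77) and as lower at ZT1 (−0.51) and ZT13 (−0.56). Its age effect was lower than that of CYP83B1, which acts earlier in the route, with a difference of −0.86 (SUR1 minus CYP83B1) and a permutation p of 1e-05. One of its 2 transcripts, AT2G20610.1, held 92.7% to 98.7% of its FPKM in every library.

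CYP81F2 (chromosome 5, 23187840 to 23189857) averaged 7.34 ± 6.12 FPKM at 35 DAS and 4.01 ± 2.32 FPKM at 21 DAS, and the ages overlapped at all 6 times. At ZT13 it read 12.4, 0.863 and 11.9 FPKM at 35 DAS, against 3.95, 2.76 and 2.22 FPKM at 21 DAS. The second of those libraries was also the lowest of its group in MYB51 and CYP79B2. The age effect of 0.51 ± 0.21 passed narrowly as deposited (adjusted p = 0.0267, limma). It was 0.18 after rescaling with an adjusted p of 0.417, and −0.07 within batch 2. With a pseudocount of 0.1 the adjusted p was 0.0510, without batch 1 it was 0.223 and without batch 3 it was 0.243. At no single time did it pass. Without the second library of 35 DAS at ZT13 the effect at that time was 1.75 with an adjusted p of 0.00107 (limma). That removal was not planned and takes out the lowest value of the group, which favours a higher effect.

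IGMT1 (chromosome 1, 7386839 to 7388428) had the largest age effect of the 8 tested members, 2.69 ± 0.14 (adjusted p = 1.6e-16, limma), or 2.3 above the median gene. It averaged 27.3 ± 16.7 FPKM at 35 DAS and 2.82 ± 1.63 FPKM at 21 DAS. At ZT5 its libraries read 51.8, 47.5 and 42.8 FPKM at 35 DAS, against 2.00, 1.62 and 2.46 FPKM at 21 DAS, where the age effect was 4.0 ± 0.34. At ZT1 they read 6.42, 6.42 and 7.72 FPKM at 35 DAS, against 2.15, 0.935 and 1.10 FPKM at 21 DAS. In the dark, at ZT17, they read 48.7, 30.5 and 47.0 FPKM at 35 DAS, against 2.63, 4.40 and 2.96 FPKM at 21 DAS. The lowest library of 35 DAS, at 6.42 FPKM, lay above the highest of 21 DAS, at 6.02 FPKM. The age effect exceeded that of CYP81F2, which supplies its substrate, by 2.18, with a permutation p of 1e-05.

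IGMT1 has close copies on the same chromosome, identical to it at 93.0% of coding bases for IGMT3 and IGMT4 and at 92.5% for IGMT2. Of the 50-base windows of its transcript, 9.76% occur elsewhere in the genome, and 1.87% of 100-base windows, while the other 8 members have none. Reads from such windows can be shared between copies. IGMT4 averaged 320 ± 163 FPKM at 35 DAS and 224 ± 118 FPKM at 21 DAS, far above IGMT1, and its age effect was 0.55 ± 0.11 (adjusted p = 3.7e-05, limma). IGMT3 averaged 4.79 ± 4.57 FPKM at 35 DAS and 1.93 ± 1.12 FPKM at 21 DAS, with an age effect of 0.67 ± 0.23 (adjusted p = 0.00931, limma). After rescaling neither passed.

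In all 7 pairs of members were compared, with p-values adjusted over them, and all 7 adjusted values were under 0.05. The other comparisons involve MYB122, whose age effect exceeded that of MYB34 by 1.49 and fell short of that of MYB51 by a difference of 1.13 (MYB51 minus MYB122), each with a permutation p of 1e-05. The second was 0.60 with a pseudocount of 0.1 (permutation p = 0.0204). Since MYB122 was at 0 in most libraries, these differences are mostly those of its partners. The share of pairs of other genes that would pass was not computed, so 7 of 7 is not shown to be particular to the members.

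The age effect varied over the day in 6 of 8 members by the F test of age by time, namely MYB34, CYP79B2, CYP79B3, CYP83B1, SUR1 and IGMT1, against 39.7% of all genes. MYB51 and CYP81F2 did not pass, with adjusted p of 0.918 and 0.805 (limma). Without batch 1 CYP79B2 and CYP83B1 alone passed, without batch 2 MYB34 was lost, and without batch 3 CYP83B1, SUR1 and IGMT1 passed. At ZT17, an hour after lights off, 6 of 8 members were called higher and 1 lower, against 46.0% and 18.5% of all genes. At ZT13, before lights off, 2 were higher and 2 lower, against 39.7% and 18%. At ZT1 the counts were 3 and 1 (background 53.2% and 17.3%), at ZT5 5 and 1 (48.3% and 15.2%), at ZT9 3 and 2 (52.2% and 17.7%) and at ZT21 3 and 1 (53.0% and 18.4%). After rescaling the counts were 2 higher and 3 lower at ZT1 (29.4% and 31.1% of all genes), 3 and 1 at ZT5 (24.0% and 27.0%) and 2 and 3 at ZT9 (27.6% and 29.8%). They were 2 and 3 at ZT13 (26.1% and 26.0%), 5 and 1 at ZT17 (26.9% and 28.2%) and 3 and 2 at ZT21 (27.9% and 29.8%). The calls lower that rescaling added were CYP79B3 at ZT1 and ZT21, CYP79B2 at ZT9, and SUR1 at ZT1 and ZT13. MYB51 was no longer called at ZT1 and ZT9, nor were CYP79B2 and SUR1 at ZT5 and CYP79B3 at ZT17. CYP83B1 had the highest effect at ZT17 after IGMT1, with age effects of 0.35 ± 0.16 at ZT13 and 2.19 ± 0.16 at ZT17, of which the second passed and the first did not.

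**Figure D3:**
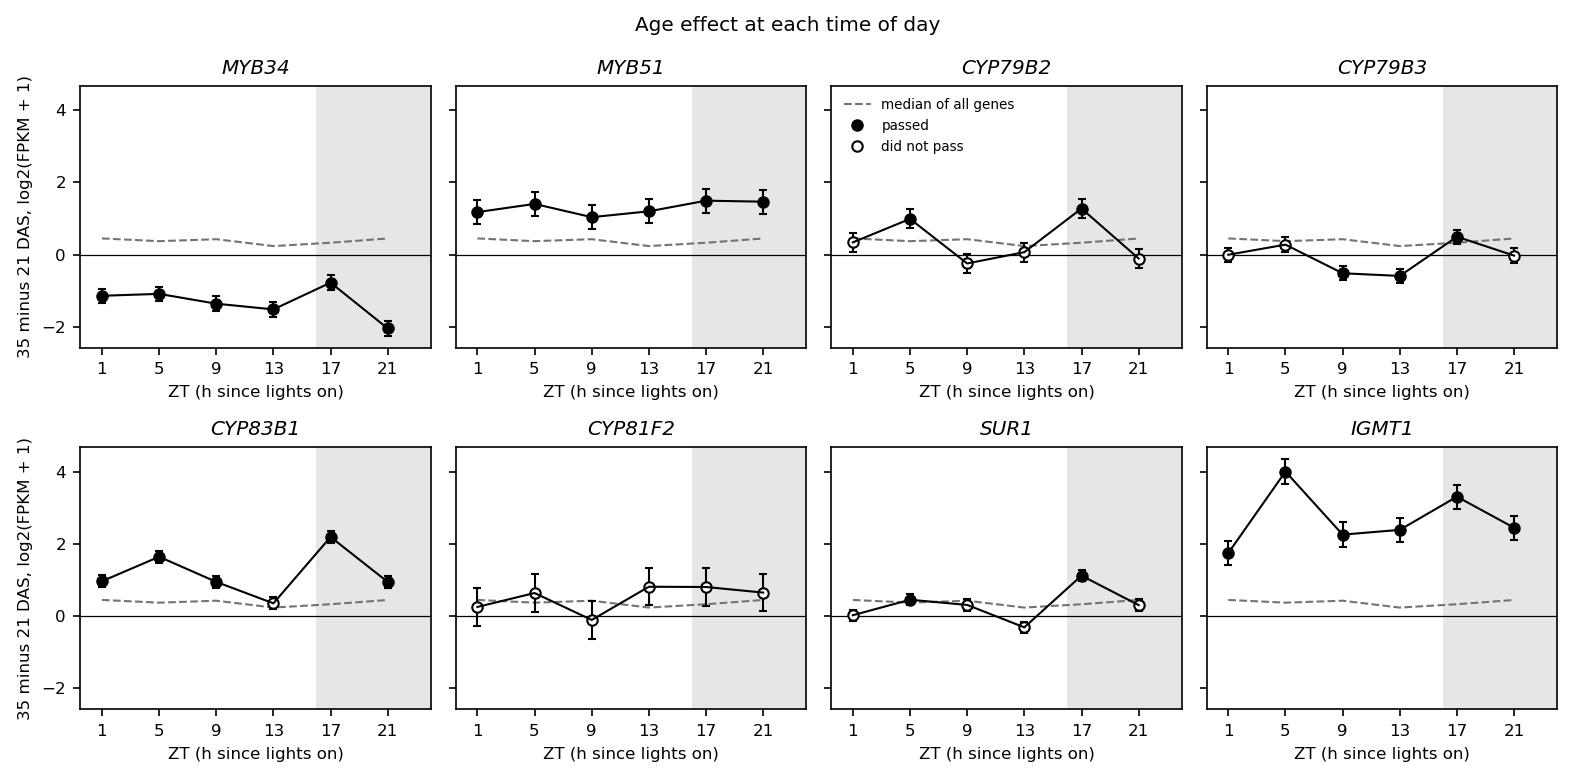
Age effect (35 minus 21 DAS, log2(FPKM + 1), vertical axis) against ZT in hours (horizontal axis) for the 8 tested genes, with SE bars. Filled points passed at an adjusted p of 0.05, open points did not, the dashed line is the median of all genes and grey marks the dark. CYP83B1 and SUR1 peak at ZT17, at 2.19 and 1.12.

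CYP83B1 and SUR1 also had a higher age effect in the dark (ZT17 and ZT21) than in the light, by 0.59 ± 0.14 each, with adjusted p of 0.00502 and 0.00373 (limma). That made 2 of 8 members, against 6.46% of all genes. Within batches 1, 2 and 3 the difference was 0.64, 0.63 and 0.51 for CYP83B1 and 0.86, 0.60 and 0.32 for SUR1. Without batch 1 neither passed, with adjusted p of 0.0597 and 0.112, and without batch 3 CYP83B1 did not, at 0.0611. With batch as a block, CYP79B3 passed as well, at 0.44 and an adjusted p of 0.0497.

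The step from ZT13 to ZT17, across lights off, was chosen for testing after the values had been seen. At 35 DAS it was downward in 2 of 8 members, against 7.71% of all genes, and upward in 1, against 12%. At 21 DAS it was downward in 5 of 8, namely MYB34, CYP79B2, CYP79B3, CYP83B1 and SUR1, against 18.6% of all genes. CYP83B1 stepped by −0.08 ± 0.16 at 35 DAS, which did not pass, and by −1.91 ± 0.16 at 21 DAS (adjusted p = 4.1e-10, limma). SUR1 stepped by −0.37 ± 0.16 at 35 DAS, which passed after rescaling alone, and by −1.81 ± 0.16 at 21 DAS. CYP79B2 stepped by −0.97 ± 0.26 at 35 DAS and by −2.18 ± 0.26 at 21 DAS, both passing, and CYP79B3 by 0.29 ± 0.20 at 35 DAS and by −0.80 ± 0.20 at 21 DAS. MYB34 stepped by −1.12 ± 0.20 at 35 DAS and by −1.86 ± 0.20 at 21 DAS, both passing. IGMT1 was the member that stepped upward at 35 DAS, by 1.58 ± 0.34. Without batch 1 the calls of CYP79B2 and IGMT1 at 35 DAS were lost (adjusted p = 0.286 and 0.111), and that of CYP79B3 at 21 DAS (0.120).

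The step differed between the ages in 4 of 8 members, all with a higher value at 35 DAS, against 6.80% of all genes. The difference was 1.84 ± 0.23 for CYP83B1 (adjusted p = 6.9e-06, limma), and 2.11, 1.48 and 1.93 within batches 1 to 3. It was 1.43 ± 0.22 for SUR1 (adjusted p = 0.000111), 1.09 ± 0.28 for CYP79B3 (0.0120) and 1.21 ± 0.37 for CYP79B2 (0.0335). The call of CYP79B2 was lost after rescaling (adjusted p = 0.0508) and without batch 2 or batch 3 (0.229 and 0.174) or the second library of 35 DAS at ZT13 (0.0879), and that of CYP79B3 without batch 1 or batch 3 (0.170 and 0.115). MYB34 had a difference of 0.74 ± 0.28 that did not pass (0.0861), and without the second library of 35 DAS at ZT13 it was 0.98 and passed (0.0161). This unplanned removal takes out the highest MYB34 value of that group, which favours a higher difference.

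**Figure D4:**
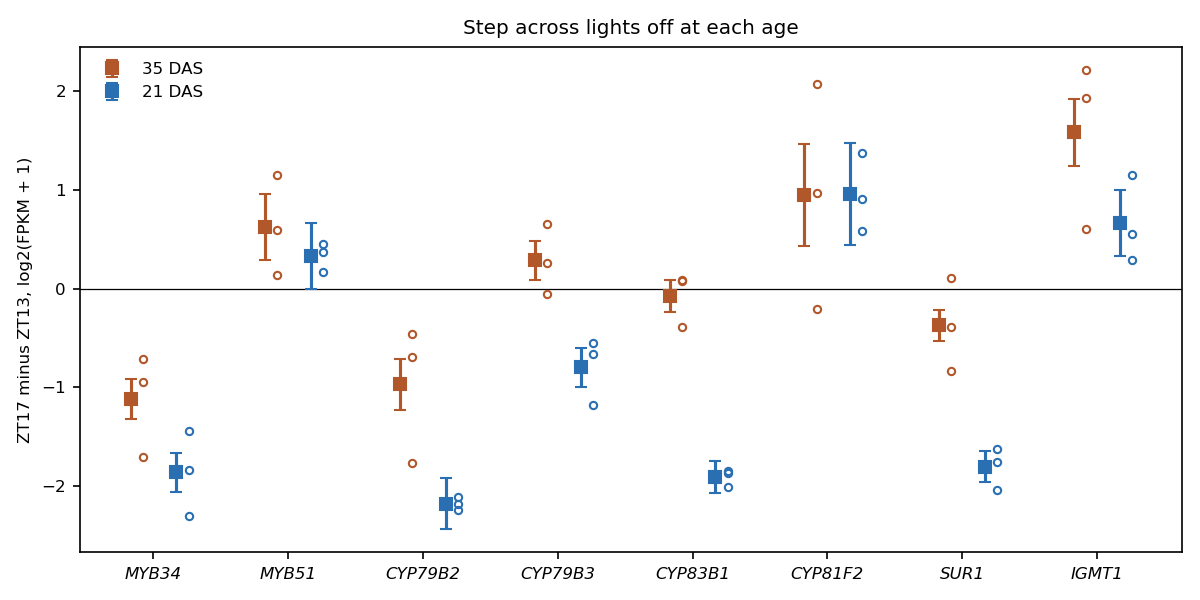
Step from ZT13 to ZT17 (log2(FPKM + 1), vertical axis) in the 8 tested genes, with squares and SE bars for the fit and open circles for batches 1 to 3. In each pair 35 DAS (brown) stands left of 21 DAS (blue). CYP83B1 lies at −0.08 at 35 DAS and at −1.91 at 21 DAS.

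All 8 members varied with time of day at each age by an F test on the 6 means, against 75.0% of all genes at 35 DAS and 79.3% at 21 DAS. After rescaling MYB51 and CYP81F2 did not pass at 21 DAS (adjusted p = 0.0777 and 0.0815), and without batch 3 the members passing at 35 DAS were MYB34, CYP79B2, CYP79B3 and IGMT1. A 24-h cosine with an amplitude of at least 0.5 passed in 4 of 8 members at 35 DAS (17.3% of all genes) and in 2 of 8 at 21 DAS (26.8%). The rhythmic members were MYB34, MYB51, CYP79B3 and CYP81F2 at 35 DAS and MYB34 and MYB51 at 21 DAS. After rescaling they were MYB34, MYB51 and CYP81F2 at 35 DAS and MYB34, CYP83B1 and SUR1 at 21 DAS, and without batch 3 MYB34 and CYP79B3 at 35 DAS. With batch as a block CYP81F2 passed as well at 21 DAS. The fitted cosine of MYB34 peaked at ZT5.3 with an amplitude of 0.98 ± 0.08 at 35 DAS and at ZT5.0 with 0.90 ± 0.08 at 21 DAS. Its highest group mean was at ZT1 at both ages. At 35 DAS the means were 15.9 FPKM at ZT1 and 14.4 FPKM at ZT5, and at 21 DAS 36.1 and 31.5 FPKM. The cosine of MYB51 peaked at ZT17.0 with 0.64 ± 0.14 at 35 DAS and at ZT16.2 with 0.55 ± 0.14 at 21 DAS, where it did not pass after rescaling (adjusted p = 0.0671). MYB34 thus peaked in the morning and MYB51 around lights off at each age. Without batch 1 MYB51 was not called at 21 DAS. SUR1 at 21 DAS had an amplitude of 0.498, just under the minimum. Rhythms differed between the ages in 0 members by limma's adjusted p and in 1, CYP79B3, by an unadjusted p under 0.05, while 27.1% of all genes passed.

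CYP79B2 at 21 DAS averaged 33.8 to 51.2 FPKM at ZT1, ZT9, ZT13 and ZT21, and less at ZT5 (12.9 FPKM) and at ZT17 (10.1 to 10.9 FPKM in its libraries), so a 12-h component was added after its values had been seen. It passed with an amplitude of at least 0.5 in 3 of 8 members at 35 DAS, against 8.79% of all genes, and in 5 of 8 at 21 DAS, against 11%. The amplitude of CYP79B2 was 0.56 ± 0.11 at 35 DAS and 1.17 ± 0.11 at 21 DAS, with fitted peaks at ZT0.46 and ZT12.5 at 35 DAS and at ZT11.3 and ZT23.3 at 21 DAS. Without batch 1 the call of CYP79B2 at 35 DAS was lost, and without batch 3 that of MYB34. For SUR1 the amplitude was 0.03 ± 0.06 at 35 DAS and 0.56 ± 0.06 at 21 DAS. In IGMT1 the order was the other way, with 1.22 ± 0.14 at 35 DAS and 0.55 ± 0.14 at 21 DAS. The component differed between the ages in 6 of 8 members, against 14.8% of all genes. These are the same 6 members as in the F test of age by time. That test includes the 12-h terms and uses the same group means, so the match is largely built in. Without batch 1 it differed in CYP79B2 and CYP83B1 alone, without batch 2 in all 6 but MYB34, and without batch 3 in CYP83B1, SUR1 and IGMT1.

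Within an age, deviations of the libraries from their group means were compared between the 3 factors and the 6 enzymes, which gave 36 relations. At 35 DAS, libraries with more MYB51 also had more CYP81F2 (Pearson's r = 0.819, Spearman's rho = 0.864, permutation p = 0.00013 and 0.0002, adjusted 0.00468 and 0.0072, n = 18). The relation with CYP79B2 had r = 0.724 and rho = 0.738 (permutation p = 0.00349 and 0.00378, adjusted 0.0457 and 0.0454), and that with CYP83B1 r = 0.692 and rho = 0.767 (permutation p = 0.00381 and 0.00059, adjusted 0.0457 and 0.0106). After rescaling the adjusted p of rho was 0.0692 for CYP79B2 and 0.0509 for CYP83B1, which did not pass, and 0.00792 for CYP81F2. Without the 2 libraries farthest from the median MYB51 deviation, r was 0.838, 0.756 and 0.660 for CYP81F2, CYP79B2 and CYP83B1. Over the 6 libraries of each batch, r ran from 0.793 to 0.869, from 0.625 to 0.953 and from 0.508 to 0.759 for the same enzymes. No relation passed at 21 DAS, where deviations were smaller, and no relation of MYB34 or MYB122 passed at either age. Relations were not compared between the ages by a test. How many genes outside the members deviated with MYB51 was not computed, so these relations are not shown to be particular to the enzymes.

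Group means put in order show how little some neighbours differ. For IGMT1 the 6 groups of 35 DAS ranked above the 6 of 21 DAS, from ZT5 at 35 DAS down to ZT1 at 21 DAS, and 3 of 11 neighbouring groups had libraries that did not overlap. For CYP83B1 the order also began at ZT5 of 35 DAS and ended at ZT17 of 21 DAS, with 3 of 11 neighbours apart. MYB34 ran from ZT1 of 21 DAS down to ZT17 of 35 DAS with 4 of 11 apart, and MYB51 from ZT17 of 35 DAS down to ZT1 of 21 DAS with 1 apart. No neighbours were apart in CYP81F2, 1 pair in CYP79B3 and SUR1 and 2 in CYP79B2.

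Genes around the pathway were read from 8 lists with 65 genes, of which 63 were tested. Their age effects over the 6 times are on the log2(FPKM + 1) scale and as deposited unless stated. Their counts stand against 64.5% of all genes higher and 23.2% lower as deposited, and 42.2% and 38.8% after rescaling. For tryptophan supply 9 of 11 genes were higher and 1 lower (median 0.52, or 0.13 above the median gene), and 5 were higher and 2 lower after rescaling. Indole-3-glycerol phosphate synthase IGPS rose by 1.28 ± 0.07 and the tryptophan synthase subunits TSA1 and TSB2 by 1.02 ± 0.09 and 0.91 ± 0.08, while the anthranilate synthase subunit ASB1 rose by 0.90 ± 0.10. All 7 later core enzymes were higher as deposited, and after rescaling 1 was lower and 2 were higher. These 2 were GGP1, which trims the glutathione conjugate, and the glutathione transferase GSTF10. GGP1 rose by 0.78 ± 0.07 as deposited and by 0.36 after rescaling, and GSTF10 by 0.75 ± 0.06 and 0.33.

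Of 6 tested genes of ring modification, 2 were higher, 1 was lower and 3 were not called. The P450 gene CYP81F3 fell by 0.62 ± 0.10, and CYP81F1 (0.08 ± 0.09), IGMT2 (−0.46 ± 0.26) and IGMT5 (−0.03 ± 0.14) did not pass. IGMT2 was −0.75 after rescaling and then passed as lower, so that after rescaling 0 genes of this list were higher and 2 lower. Of 8 regulators 6 were higher and 2 lower, and 4 were higher and 2 lower after rescaling, shares near those of all genes as deposited. The jasmonate-pathway factors MYC2, MYC3 and MYC4, partners of the MYB factors, rose by 1.69 ± 0.09, 1.02 ± 0.05 and 0.67 ± 0.07, and the defence regulator WRKY33 rose by 1.48 ± 0.19. MYC5, a relative of these factors named here after its value was seen, fell by 0.56 ± 0.04. It averaged 0.0133 FPKM at 35 DAS and 0.569 FPKM at 21 DAS. MYC5 thus met the filter through 21 DAS alone, which favours its call as lower.

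The branch from indole-3-acetaldoxime to camalexin and nitriles was higher in 7 of 8 tested genes as deposited, with a median of 1.56, and after rescaling 7 were higher and 1 lower. The nitrilase NIT2 averaged 8.94 ± 8.08 FPKM at 35 DAS and 0.00229 ± 0.00970 FPKM at 21 DAS (SD, n = 18 libraries each). NIT2 thus met the filter of 1 FPKM in 3 libraries through 35 DAS alone, which favours its call as higher. PAD3, which completes camalexin, averaged 37.4 ± 59.2 FPKM at 35 DAS and 3.42 ± 4.24 FPKM at 21 DAS, with an age effect of 2.41 ± 0.43. The glutathione transferase GSTF6 rose by 2.36 ± 0.36 and CYP71A12, which turns the aldoxime into a nitrile, by 1.68 ± 0.19.

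Of 4 transport genes 2 were higher, the importer GTR2 by 1.07 ± 0.08 and the exporter PEN3 by 0.98 ± 0.14, and GTR1 (−0.05 ± 0.08) and GTR3 (0.13 ± 0.08) did not pass. After rescaling GTR1 and GTR3 were called lower. Breakdown genes had 3 higher and 2 lower of 5, and 2 and 2 after rescaling. The myrosinases TGG1 and TGG2 were lower, TGG1 at 77.0 ± 26.6 FPKM at 35 DAS and 1356 ± 277 FPKM at 21 DAS, and TGG2 at 5.35 ± 3.02 FPKM at 35 DAS and 451 ± 117 FPKM at 21 DAS. PEN2, the myrosinase known to act on indolic glucosinolates, rose by 0.51 ± 0.06 as deposited and was at 0.10 after rescaling, which did not pass. The beta-glucosidases BGLU18 and PYK10 rose by 3.48 ± 0.21 and 1.12 ± 0.18, and PYK10 averaged 1.79 ± 1.73 FPKM at 35 DAS and 0.113 ± 0.183 FPKM at 21 DAS. PYK10 was under 1 FPKM in every library of 21 DAS, so it met the filter through 35 DAS alone, which favours its call as higher.

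The aliphatic branch shares SUR1 and had 6 of 14 genes higher, 4 lower and 4 not called, with a median of 0.02, or −0.38 relative to the median gene. MAM3, which elongates methionine chains, rose by 1.67 ± 0.16 and CYP79F2 by 0.69 ± 0.11. MYB29, a factor of that branch, fell by 1.2 ± 0.12, and the glutathione transferase GSTU20 fell by 1.08 ± 0.12. After rescaling 2 genes of the list were higher and 9 lower.

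**Figure D5:**
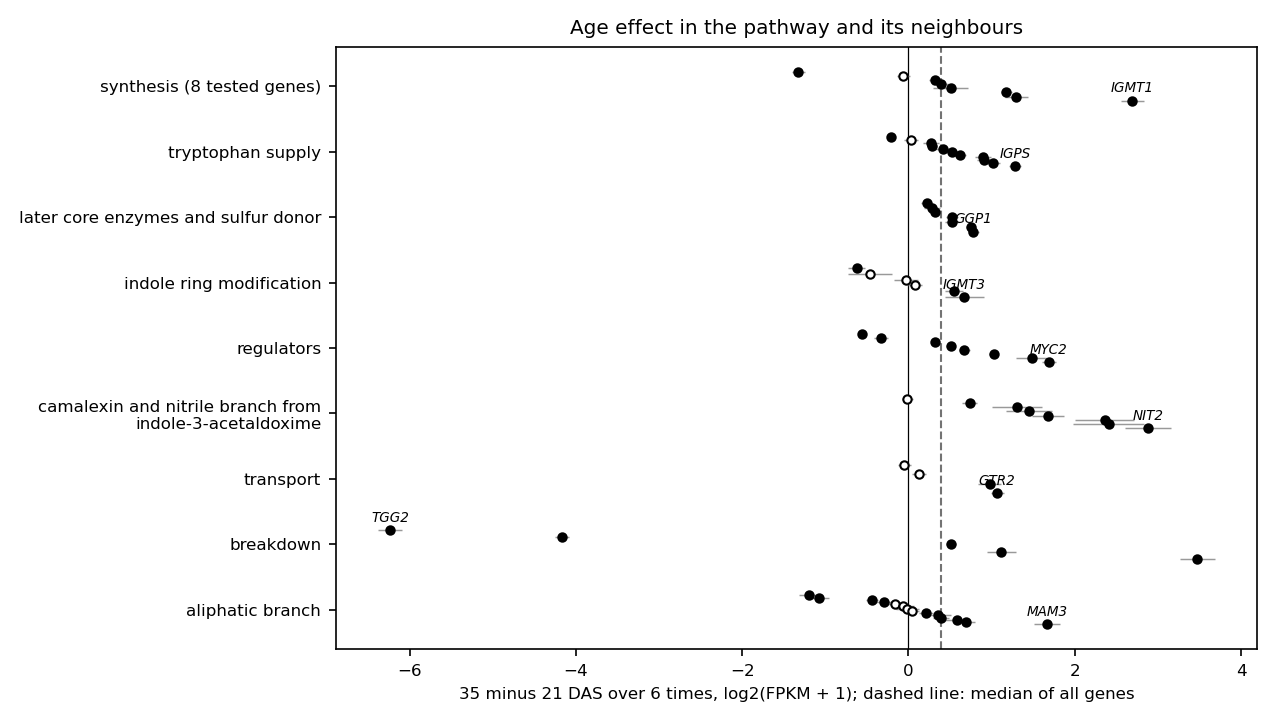
Age effect over the 6 times (35 minus 21 DAS, log2(FPKM + 1), horizontal axis) of the 8 tested synthesis genes and of 63 genes in 8 lists (rows), with SE bars. Filled points passed at an adjusted p of 0.05, open points did not, and the dashed line is the median of all genes at 0.39. TGG2 and IGMT1 lie at −6.24 and 2.69.

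Over the 12 group means, the profile of SUR1 was most like those of 3 genes with roles later in glucosinolate synthesis, among 13459 genes compared. The highest Pearson's r were 0.978 with SOT17, a sulfotransferase of the aliphatic branch, 0.973 with the glucosyltransferase UGT74B1 and 0.962 with the kinase APK, which makes the sulfur donor. CYP83B1 had GGP1 second at 0.940, between AT3G26850 at 0.943 and AT1G24148 at 0.939. CYP81F2 was most like WRKY39 (0.955) and the ethylene-response factor ERF5 (0.952). MYB34 was most like AT3G61550 (0.990), MYB51 like AT4G31510 (0.985), IGMT1 like AT2G37130 (0.967), CYP79B3 like AT1G71180 (0.903) and CYP79B2 like AT5G11460 (0.870). Between the members, r ran from −0.907 for MYB34 and MYB51 to 0.897 for MYB51 and IGMT1. Group means of 35 and 21 DAS enter these values together. Age effects in the same direction alone thus raise r, and opposite age effects lower it.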

How the data were processed

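The authors deposited 1 table of FPKM per transcript for 36 polyadenylated RNA libraries. Per the submitters' processing notes, STAR 2.3.0e, HTSeq and edgeR 3.12.1 were used with TAIR10, and the step from counts to FPKM is not given in the sources used here. FPKM were summed per gene and analysed as log2(FPKM + 1) for the 18729 genes that 3 libraries or more held at 1 FPKM or above. Fold changes of low genes are understated on this scale. limma 3.58.1 (R 4.3.3) fitted 12 group means with a mean-variance trend, and p-values were adjusted by Benjamini-Hochberg over all genes tested, with calls under 0.05. The main fit used no block. Differences between members and relations between members used two-sided permutation tests (100000 permutations within times, numpy 2.4.6). The scripts of both tests were also run on simulated data. Values listed at 0 can be failed estimates. Exact read counts could not be recovered: after scaling for depth, 36.6% of low values lay within 0.05 of a whole multiple of the smallest. The smallest value of each gene counts as such a multiple itself, so this check gives the depth ratios little support. For batch 2 of 35 DAS at ZT21 the ratio rested on 13 of 609 genes. The ratios are therefore rough estimates.

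Members and lists were chosen with earlier results of these data known. Named genes are the 9 members, up to 4 called genes with the largest absolute age effect from each pathway list, every gene of lists with 6 or fewer tested genes, and for each member the 3 genes of 5 FPKM or more with the highest Pearson's r over group means. Titles mark shared batch numbers, so the numbers were taken to pair libraries across groups. Over 198 pairs with the same number, deviations had a mean r of 0.00856 (−0.473 to 0.582), with 38 pairs over 0.1. Pairs of other groups with other numbers had a mean r of −0.00445, so libraries of 1 number hardly deviated together. Values within or without a batch are therefore those of sets of libraries, not of a shown common unit. Alternatives were median-of-ratios rescaling, pseudocount 0.1, no filter, a replicate block, weights by age, the top transcript alone and leaving out libraries. TAIR10.1 positions overlapped the same locus in nearly all of 32815 loci compared.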

Additional observations from a re-analysis of the deposited data

Results flagged for a closer look

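The age effect depended on the time of day in several members, each by a test of that difference in limma with adjusted p-values. The effect in the dark exceeded that in the light by 0.591 in CYP83B1 and by 0.594 in SUR1. The step from ZT13 to ZT17 was higher at 35 DAS than at 21 DAS by 1.21 in CYP79B2, 1.09 in CYP79B3, 1.84 in CYP83B1 and 1.43 in SUR1. The F test of age by time gave adjusted p of 0.0126 for MYB34, 0.00664 for CYP79B2, 0.0137 for CYP79B3, 1.61e-05 for CYP83B1, 0.00047 for SUR1 and 0.00506 for IGMT1. A difference of the 12-h component between the ages had adjusted p of 0.0262 for MYB34, 0.00351 for CYP79B2, 0.0243 for CYP79B3, 2.52e-05 for CYP83B1, 0.000979 for SUR1 and 0.00421 for IGMT1. The 12-h component and the step were chosen after the values had been seen. These differences and that of dark and light are parts of what the F test of age by time covers, so they are not separate results. CYP83B1 passed the F test of age by time without each batch in turn.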

How the results depend on the processing

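Scaling had the widest effect: after median-of-ratios rescaling 3 members were higher and 2 lower over the 6 times, in place of 6 and 1, and the calls lower at single times numbered 13. Values that changed sign under it were CYP79B2 over the 6 times (−0.0199), at ZT1 (−0.19) and at ZT13 (−0.17), SUR1 over the 6 times (−0.10), at ZT1 (−0.51), ZT9 (−0.17) and ZT21 (−0.17), CYP81F2 at ZT1 (−0.0859) and CYP79B3 at ZT5 (−0.14). SUR1 at ZT1 was −0.0042 with its top transcript alone, and the step of CYP81F2 between ages was 0.0613 with a pseudocount of 0.1. Without a minimum on the amplitude, 5 members were rhythmic at 21 DAS. Leaving out libraries in turn, which leaves fewer samples, gave 2 to 6 members in the F test of age by time, 0 to 3 in the dark minus light difference, 2 to 4 rhythmic at 35 DAS, 0 to 1 in the rhythm difference, 2 to 6 in the 12-h difference, 4 to 8 in the time of day test at 35 DAS, 1 to 2 lower across lights off at 35 DAS and 2 to 4 in the difference of that step. Effects near 0 changed sign in these fits: CYP79B3 at ZT1 (−0.029 to 0.0101) and ZT21 (−0.28 to 0.12), CYP81F2 at ZT1 (−0.12 to 0.52) and ZT9 (−0.26 to 0.15), SUR1 at ZT1 (−0.24 to 0.16), and CYP79B2 at ZT13 (−0.18 to 0.37) and ZT21 (−0.23 to 0.0528). So did the dark minus light difference of MYB34 (−0.30 to 0.0388) and IGMT1 (−0.0515 to 0.52), the step of CYP83B1 at 35 DAS (−0.16 to 0.0809), and its difference between ages in MYB51 (−0.0203 to 0.56) and CYP81F2 (−0.95 to 0.39). With the replicate block, 6 members were higher and 1 lower over the 6 times, and the call of CYP79B3 in the dark minus light difference (0.44) was the only value of a contrast to change its call, while 3 members in place of 2 were rhythmic at 21 DAS. All 7 pairs passed under each alternative run. Of 945 member values under alternatives, 871 kept direction and call. Part of this is built in. With no filter, the replicate block or weights by age, the effect estimates stay those of the main fit. The top transcript alone can change the estimate of SUR1 only, and leaving out 1 library changes only its own time. The count is thus not a rate of independent agreement. The causes were not tested. Exact depth is unknown, so no limit from depth is given for low genes such as MYB122.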
